A study of Mus musculus with 8 samples.

Results

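Mt1 and Mt2, which encode metallothioneins, were examined together with 8 genes of the antioxidant response that the transcription factor NRF2 controls: Hmox1, Nqo1, Gclc, Gclm, Txnrd1, Srxn1, Slc7a11 and Nfe2l2, the gene for NRF2 itself. The genes were chosen by name, and every probe set whose only platform symbol was one of these was read, which gave 20 probe sets for 10 genes out of 18193 genes with a symbol of their own on the array. The values came from 8 Affymetrix arrays of mouse retina total RNA. The injected group held 4 retinas that had been given an injection, recorded as treatment with a compound. The control group held 4 fresh retinas at time 0 d. Compound, dose, route and time from injection to dissection are not given, nor are strain, sex and age. Because the controls had no sham injection, the procedure and the compound cannot be told apart. Whether the 4 samples of a group came from separate animals is not stated, so the p-values may measure technical spread only.

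Metallothioneins are small cysteine-rich proteins that bind zinc and copper, and their genes are switched on by metals, glucocorticoids, inflammatory signals and oxidants. NRF2 is held in the cytoplasm and marked for degradation by KEAP1 until oxidants or electrophiles modify KEAP1. NRF2 then enters the nucleus, pairs with a small MAF protein and binds antioxidant response elements in genes for glutathione synthesis, thioredoxin reduction, quinone reduction and heme breakdown. In the retina both systems are studied in photoreceptors, Müller glia and pigment epithelium, where light and high oxygen use make oxidants.

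The promoters of Mt1, Mt2 and Gclm are shown because they hold matches to the core of the metal response element, bound by MTF1, or of the antioxidant response element, bound by NRF2, through which the genes are known to be switched on. Each run is 300 bases, from 250 before to 50 after the annotated gene start, as RefSeq gives it on GRCm38.p6, written 5′ to 3′ along the gene. Capitals mark matches to the metal core (TGCACNC or TGCGCNC) or the antioxidant core (TGACNNNGC) on either strand.
Mt1, chr8:94178839-94179138, plus strand: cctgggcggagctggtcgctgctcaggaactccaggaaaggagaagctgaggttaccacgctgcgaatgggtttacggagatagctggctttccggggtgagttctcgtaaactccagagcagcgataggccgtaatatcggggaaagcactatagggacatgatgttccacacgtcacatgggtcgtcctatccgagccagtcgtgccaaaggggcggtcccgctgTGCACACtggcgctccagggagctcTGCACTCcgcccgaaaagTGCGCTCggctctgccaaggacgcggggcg
Mt2, chr8:94172368-94172667, plus strand: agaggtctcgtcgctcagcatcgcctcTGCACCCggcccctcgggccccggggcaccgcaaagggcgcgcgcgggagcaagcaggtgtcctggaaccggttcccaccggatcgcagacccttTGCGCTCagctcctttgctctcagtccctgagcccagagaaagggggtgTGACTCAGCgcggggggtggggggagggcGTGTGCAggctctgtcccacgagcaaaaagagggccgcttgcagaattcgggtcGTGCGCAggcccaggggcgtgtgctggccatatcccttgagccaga
Gclm, chr3:122245307-122245606, plus strand: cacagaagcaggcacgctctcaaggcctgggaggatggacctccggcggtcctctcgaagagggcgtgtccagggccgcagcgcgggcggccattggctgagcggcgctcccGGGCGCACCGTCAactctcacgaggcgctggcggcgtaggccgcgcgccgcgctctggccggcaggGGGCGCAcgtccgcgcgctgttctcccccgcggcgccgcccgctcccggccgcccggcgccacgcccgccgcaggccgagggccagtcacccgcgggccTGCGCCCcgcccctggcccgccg

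Mt1 held 3 metal cores and no antioxidant core in these 300 bases, which says nothing of the bases outside them. Mt2, the neighbouring gene upstream, held 4 metal cores and 1 antioxidant core. Gclm held 3 metal cores and 1 antioxidant core, and in it the first metal core and the antioxidant core overlap, so the capitals there run together. A metal core was present in 25.7% of the 32851 promoter windows of the table, and 0.517% had 4 or more. An antioxidant core was present in 12.4%. Promoter windows were listed for 8 of the 10 genes, with 10 windows in all. Nfe2l2 had 1 antioxidant core, Srxn1 had 1 of each, and 1 of the 3 Txnrd1 windows had 1 antioxidant core. The windows of Slc7a11 and Nqo1 had neither, which says only that these letters are not in these 300 bases. A match is a description of the letters and not a measured binding site.

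None of the 8 genes that could be tested passed correction for multiple tests between injected and control retina, and 2 were too dim to be tested. Values are log2(intensity + 16) after quantile normalisation, differences are injected minus control in log2 units, and a probe set was tested when its mean over all 8 arrays was at or above a floor of 8.50. Of the 20 probe sets, 11 were tested, representing 8 genes, and 9 were below the floor. Hmox1 and Slc7a11 had no probe set above it. By limma with Benjamini-Hochberg adjustment 0 of the 11 passed an adjusted p of 0.05, where 0% of all 27022 tested probe sets did, and an unmoderated linear model also called 0. At an unadjusted p under 0.05 there was 1 of 11, a probe set of Mt1, against 6.99% of all tested probe sets. That count was 0 with a replicate block and without control replicate 2, injected replicate 1 or injected replicate 2. It was 2 after centring on array medians, 2 with a trended robust prior in limma, and 3 without injected replicate 4. Injected and control values overlapped at all 11, whereas the groups did not overlap at 5.07% of tested probe sets. The difference was negative at 9 of the 11, with a median of -0.22, against a median of -0.02 over all tested probe sets, of which 14154 were negative. The split of signs depended on the setting: 6 of the 11 were negative without control replicate 2 and injected replicate 3 together, 7 with array weights and all 11 after centring on array medians.

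Some arrays stood apart. Injected replicate 3 had a median correlation of 0.868 with the other arrays, where the other 7 ran from 0.936 to 0.951, and limma gave it the lowest array weight, 0.191. The ratio of 3′ to 5′ signal for Gapdh, a measure of how intact the labelled RNA was, ran from 5.26 to 8.82 in injected retina, highest in injected replicate 3, and from 3.36 to 4.68 in control retina (p = 0.0286 by exact two-sided permutation, the lowest possible with 4 arrays a group). For Actb the ratio ran from 43.3 to 59.7 in injected and from 39.2 to 57.2 in control retina (exact two-sided permutation p = 0.486). On every array of both groups the 3′ signal was thus at least 39.2 times the 5′ signal for Actb, and at least 3.36 times for Gapdh. The part of this in the readings of single probe sets was not tested. Rod markers, which check the tissue label, were strong on all arrays: 5 of the 7 listed were matched and all 5 lay above the floor, with Sag, the rod arrestin, the strongest. Their mean was 14.55 ± 0.43 in injected and 14.97 ± 0.07 in control retina (SD, n = 4 each; exact two-sided permutation p = 0.114), and it was lowest in injected replicate 3. In whole tissue, fewer cells of a type and less RNA per cell cannot be told apart.

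**Figure D1:**
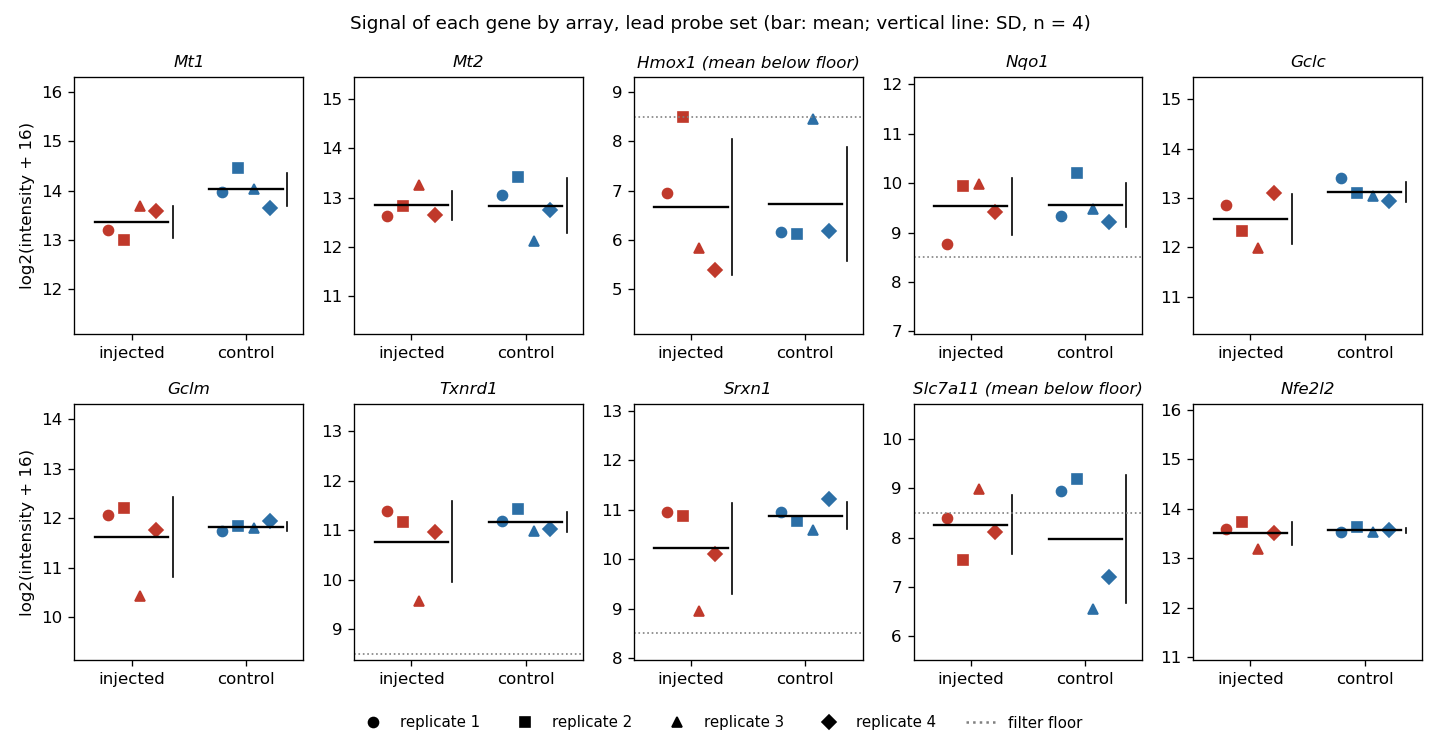
Normalised log2(intensity + 16) of each gene at its strongest probe set on each array, injected at left and control at right of each panel, with the mean as a bar, the SD as a vertical line (n = 4) and the filter floor dotted. The groups overlap in all 10 panels, and injected replicate 3 (triangle) lies far below the other arrays for Gclm (10.43), Txnrd1 (9.56) and Srxn1 (8.95).

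Mt1 had the lowest unadjusted p of the 10 genes. Its strongest probe set (1422557_s_at) read 13.20, 13.00, 13.69 and 13.60 in injected replicates 1 to 4, against 13.96, 14.46, 14.03 and 13.64 in control replicates 1 to 4. Of the injected arrays 3 lay below all controls and injected replicate 3 lay just above the lowest control, so the groups overlapped. The difference was -0.65 ± 0.24 (SE), or 0.636-fold with a 95% interval of 0.437 to 0.927 before correction (limma unadjusted p = 0.0234; adjusted p = 0.709). It did not pass the adjusted threshold. The unadjusted p was 0.0690 without control replicate 2, 0.0585 without injected replicate 1, 0.0672 without injected replicate 2 and 0.0565 with a replicate block, all by limma. Other limma settings lowered it, to 0.0126 without injected replicate 3, 0.0080 with array weights and 0.00178 after centring on array medians. Across the settings the smallest limma adjusted p was 0.393, with array weights. The Gapdh 3′ to 5′ ratio, higher on all 4 injected arrays, moved with the same groups, and its part in this difference was not tested. Without injected replicate 3 the Mt1 difference was -0.76, so it was as large without that array.

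A second Mt1 probe set (1451612_at) had the opposite sign. It read 8.74, 9.17, 9.41 and 7.71 in injected replicates 1 to 4, against 7.99, 6.50, 8.88 and 5.32 in control replicates 1 to 4. Its mean was below the floor and only 4 of 8 arrays reached it. The difference was 1.58 ± 0.76 (SE) in a fit of all probe sets, and the groups overlapped. The name of the strongest probe set ends in s_at, which marks probes that can bind related transcripts, so its signal can hold RNA of another metallothionein gene.

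Mt2 showed almost no difference in means. It read 12.63, 12.83, 13.26 and 12.64 in injected replicates 1 to 4, against 13.05, 13.42, 12.11 and 12.75 in control replicates 1 to 4. The injected values lay inside the range of the controls. The difference was 0.0076 ± 0.29 (SE), with a 95% interval of 0.636 to 1.59-fold (limma adjusted p = 0.997), which leaves room for a moderate change either way. Control replicate 2 had the highest reading of both Mt1 and Mt2. That array was also the highest in markers of pigment epithelium and pigment cells, at 1.86 above the control mean of the list, and of sclera and fibroblasts, at 2.13 above it. All 10 pigment markers and all 5 sclera markers were matched, none was listed at 0, and Best1 and Mlana lay below the floor. Summed deposited intensity of the pigment list ran from 34781 to 130518 in injected and from 75068 to 343571 in control retina, and that of the sclera list from 3108 to 5083 in injected and from 2121 to 29658 in control retina. Without control replicate 2, the difference was -0.51 for Mt1 and 0.20 for Mt2.

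Mt3, the metallothionein of neurons, was dim and did not differ beyond its error, at 0.12 ± 0.55 (SE; limma adjusted p = 0.961). Its sign turned with single arrays, from -0.20 without control replicate 4 to 0.59 without control replicate 2, and it was -0.12 without injected replicate 3. Mtf1, the zinc sensor that drives Mt1 and Mt2, was at -0.0029 with an SE of 0.18, and between -0.067 and 0.094 with 1 array left out. The probe sets of Mtf1 ran from -0.73 to 0.054. Of 16 genes in a list for metal handling, 15 were tested, 0 passed in either direction, 0 had an unadjusted p under 0.05, and the median difference was 0.12 against -0.01 over the 12886 genes tested at their strongest probe set. Of those 12886 genes 6.68% had an unadjusted p under 0.05, the share against which the counts of all related lists are to be read. The list median ran from 0.024 to 0.15 with 1 array left out, and was 0.045 without injected replicate 3. Slc30a3, a vesicular zinc transporter, had the smallest p at 0.35 ± 0.19 (SE), followed by the copper chaperone Atox1 at -0.45 ± 0.28 and the copper importer Slc31a1 at -0.31 ± 0.25. Atox1 was at -0.27 without control replicate 2, and its probe sets ran from -0.76 to 0.99. Slc31a1 was at -0.50 without injected replicate 2 and at -0.12 without injected replicate 4.

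Nfe2l2 was strong and steady. At its main probe set it read 13.58, 13.74, 13.18 and 13.50 in injected replicates 1 to 4, against 13.52, 13.64, 13.52 and 13.56 in control replicates 1 to 4. The control values lay within the range of the injected values. The difference was -0.06 ± 0.18 (SE), and the 95% interval, 0.725 to 1.27-fold, was the narrowest of the 8 tested genes (limma adjusted p = 0.929). The activity of NRF2 depends largely on protein stability, which an array of RNA does not measure. A second, dim probe set (1457117_at) was at -0.55 ± 0.46.

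Genes for the partners and regulators of NRF2 did not pass either. In a list of 10, 9 were tested, 0 passed and 0 had an unadjusted p under 0.05, with a median difference of 0.13 that turned to -0.065 without injected replicate 3. Keap1, the inhibitor of NRF2, was at 0.25 ± 0.39 (SE), at -0.065 without injected replicate 3, at 0.57 without injected replicate 2 and at 0.058 without control replicate 3. Keap1 probe sets ran from 0.25 to 1.68. Bach1, a repressor that competes for antioxidant response elements, was at 0.36 ± 0.36 at 0.03 without injected replicate 3 and at 0.67 without injected replicate 4. The ubiquitin ligase components Rbx1 and Cul3, which work with KEAP1, were at -0.73 ± 0.35 and 0.13 ± 0.18, and Cul3 was between 0.078 and 0.22 with 1 array left out. Cul3 probe sets ran from -0.21 to 0.13.

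Gclc and Gclm encode the catalytic and modifier subunits of glutamate-cysteine ligase, the rate-limiting enzyme of glutathione synthesis. Gclc (1424296_at) read 12.85, 12.33, 11.98 and 13.11 in injected replicates 1 to 4, against 13.40, 13.11, 13.04 and 12.94 in control replicates 1 to 4. Injected replicates 1 to 3 lay below all controls, with replicate 3 the lowest, and injected replicate 4 lay among the controls. The difference was -0.55 ± 0.27 (SE), or 0.681-fold with a 95% interval of 0.450 to 1.03 (limma adjusted p = 0.725). Without injected replicate 3 it was -0.36.

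The second tested Gclc probe set (1455959_s_at) had the opposite sign, at 0.20 ± 0.32 (SE), and there injected replicate 3 was the highest array, at 13.21, rather than the lowest. Its name ends in s_at, so its signal can hold related transcripts. Gclc was the 1 gene of 3 with several tested probe sets whose tested probe sets disagreed in sign.

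Gclm (1439050_at) read 12.06, 12.21, 10.43 and 11.75 in injected replicates 1 to 4, against 11.73, 11.84, 11.81 and 11.94 in control replicates 1 to 4. Injected replicate 3 was far below the rest, and 2 of the other injected arrays were above all controls. The difference of -0.22 ± 0.36 (SE; limma adjusted p = 0.870) became 0.18 without that array. Another Gclm probe set (1418627_at) was at -0.60 ± 0.37, and at -0.26 without injected replicate 3, which was again the lowest of the 8 arrays.

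Slc7a11, the cystine transporter that feeds glutathione synthesis, was too dim to be tested. Its stronger probe set (1443536_at) read 8.39, 7.54, 8.98 and 8.12 in injected replicates 1 to 4, against 8.95, 9.19, 6.55 and 7.20 in control replicates 1 to 4, and 3 of the 8 arrays reached the floor. The difference in a fit of all probe sets was 0.29 ± 0.63 (SE), and that of the other probe set (1420413_at) was -0.72 ± 0.65. The controls alone spanned a wider range than the gap between the groups.

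Other glutathione genes varied in both directions. Of 24 in the list 20 were tested, 0 passed, and at an unadjusted p under 0.05 there were 1 higher and 2 lower, with a median of -0.10 that turned to 0.029 without control replicate 2. Gsta4, which conjugates glutathione to lipid aldehydes, was at -0.84 ± 0.30 (SE), and glutathione reductase Gsr was at -0.81 ± 0.35, with an injected mean, 8.60, close to the floor. All 4 injected values of Gsr lay below all controls, where the groups did not overlap at 5.50% of the 12886 genes. Its difference was -0.43 without injected replicate 1, and another, dim Gsr probe set was at 0.39. Gstm1, another glutathione transferase, was at 0.63 ± 0.27, with probe sets of that gene from -0.80 to 1.62. Their limma adjusted p-values ran from 0.701 to 0.712.

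**Figure D2:**
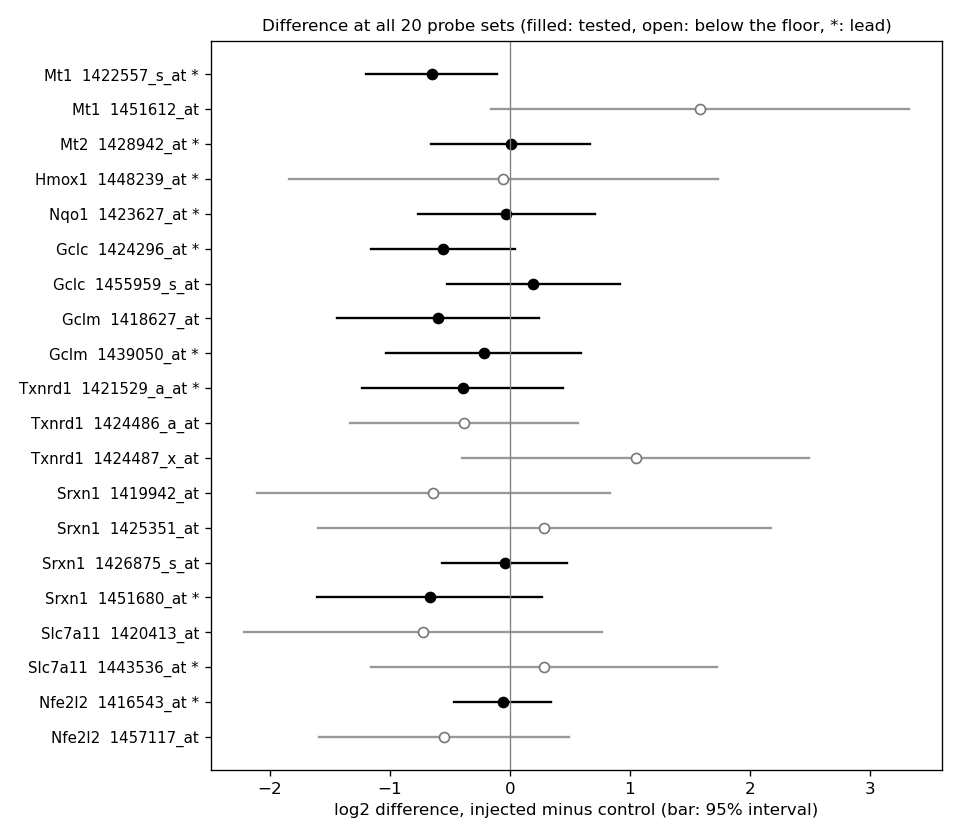
Log2 difference, injected minus control, with its 95% interval at all 20 probe sets of the 10 genes, filled where tested and open where the mean lay below the floor, with a star for the strongest probe set of a gene. The interval of the strongest Mt1 probe set (-0.65) is the one tested interval that leaves out 0 before correction, and the second Mt1 probe set lies on the other side (1.58).

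Txnrd1, the cytosolic thioredoxin reductase, depended on a single array. It read 11.39, 11.17, 9.56 and 10.96 in injected replicates 1 to 4, against 11.19, 11.43, 10.98 and 11.03 in control replicates 1 to 4. The difference was -0.39 ± 0.37 (SE; limma adjusted p = 0.784) and 0.01 without injected replicate 3, so the other 3 injected arrays averaged as the controls did. The other Txnrd1 probe sets were below the floor, at -0.38 ± 0.42 and 1.05 ± 0.63.

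Srxn1 encodes sulfiredoxin, which repairs overoxidised peroxiredoxins. Its strongest probe set (1451680_at) read 10.96, 10.87, 8.95 and 10.10 in injected replicates 1 to 4, against 10.96, 10.78, 10.59 and 11.21 in control replicates 1 to 4. Injected replicates 3 and 4 lay below all controls, and replicates 1 and 2 lay among them. The difference was -0.67 ± 0.42 (SE), with a 95% interval of 0.329 to 1.21-fold (limma adjusted p = 0.744), and it was -0.24 without injected replicate 3. A second tested probe set (1426875_s_at), whose s_at ending marks probes that can bind related transcripts, was at -0.04 ± 0.23. The 2 dim ones were at -0.64 ± 0.64 and 0.29 ± 0.82.

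Among thioredoxin, peroxiredoxin and superoxide enzymes, 12 of the 16 listed genes were tested, 0 passed and 0 had an unadjusted p under 0.05, with a median of 0.02 that lay between -0.0078 and 0.10 with 1 array left out. Catalase, Cat, was at 0.55 ± 0.34 (SE) and at 0.18 without injected replicate 3. Prdx4 and Prdx2, peroxiredoxins that reduce hydrogen peroxide, were at -0.69 ± 0.44 and -0.34 ± 0.22, and at -0.20 and -0.14 without that array. Another tested Prdx4 probe set had the opposite sign.

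Nqo1, the quinone reductase often used as a readout of NRF2, was just above the floor. It read 8.76, 9.95, 9.99 and 9.43 in injected replicates 1 to 4, against 9.34, 10.20, 9.48 and 9.22 in control replicates 1 to 4. The groups overlapped across most of their range. The difference was -0.03 ± 0.33 (SE), with a 95% interval of 0.589 to 1.63-fold (limma adjusted p = 0.985). Control replicate 2, the array with the strongest pigment and sclera markers, was the highest, and without it the difference was 0.18.

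Hmox1, the inducible heme oxygenase that breaks heme down to iron, carbon monoxide and biliverdin, was dim. It read 6.96, 8.49, 5.84 and 5.39 in injected replicates 1 to 4, against 6.16, 6.12, 8.45 and 6.18 in control replicates 1 to 4, and 0 of the 8 arrays reached the floor. One array in each group was high and the others were low. The difference in a fit of all probe sets was -0.06 ± 0.78 (SE), with a 95% interval of 0.279 to 3.32-fold. At this dim signal the interval leaves room for a large change either way. Markers of microglia and macrophages, in which Hmox1 can be induced, were all 10 matched with 9 above the floor and Aif1 below it. Their mean was 11.37 ± 0.26 in injected and 10.81 ± 0.32 in control retina (SD, n = 4 each; exact two-sided permutation p = 0.0571). Summed deposited intensity of that list ran from 73801 to 228136 in injected and from 34770 to 58784 in control retina, and none of its markers was listed at 0. The highest sum was that of injected replicate 3. The list means overlapped, with injected replicate 2 at 0.23 and control replicate 2 at 0.40 above the control mean. Lens markers were highest, within each group, on the array where Hmox1 was highest. Their mean deviation from the control mean was 3.89 in injected replicate 2, the highest of the injected arrays, and 1.19 in control replicate 3, the highest control. All 9 lens markers were matched, 5 lay above the floor, with Bfsp1, Bfsp2, Cryaa and Mip below it, and none was listed at 0. Summed deposited intensity of the lens list ran from 4719 to 85120.1 in injected and from 1412 to 15900 in control retina. The part of either list in the Hmox1 values was not tested.

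In the list for heme and iron, 12 of 15 genes were tested, 0 passed, and 2 were higher at an unadjusted p under 0.05, with a median of 0.03 that lay between -0.021 and 0.066 with 1 array left out. Lcn2, an acute-phase protein that binds iron-carrying siderophores, had the widest difference of the related lists, at 1.53 ± 0.50 (SE; limma adjusted p = 0.638). It read 10.39, 10.39, 11.57 and 12.59 in injected replicates 1 to 4, against 9.19, 10.44, 9.73 and 9.44 in control replicates 1 to 4. Injected replicates 1 and 2 lay just below the highest control, replicate 2. The iron exporter Slc40a1 was at 0.63 ± 0.24, the ferroxidase Heph at -0.48 ± 0.22, and the constitutive heme oxygenase Hmox2 at -0.27 ± 0.19. Heph was at -0.32 without control replicate 2 and Hmox2 at -0.16 without injected replicate 3.

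**Figure D3:**
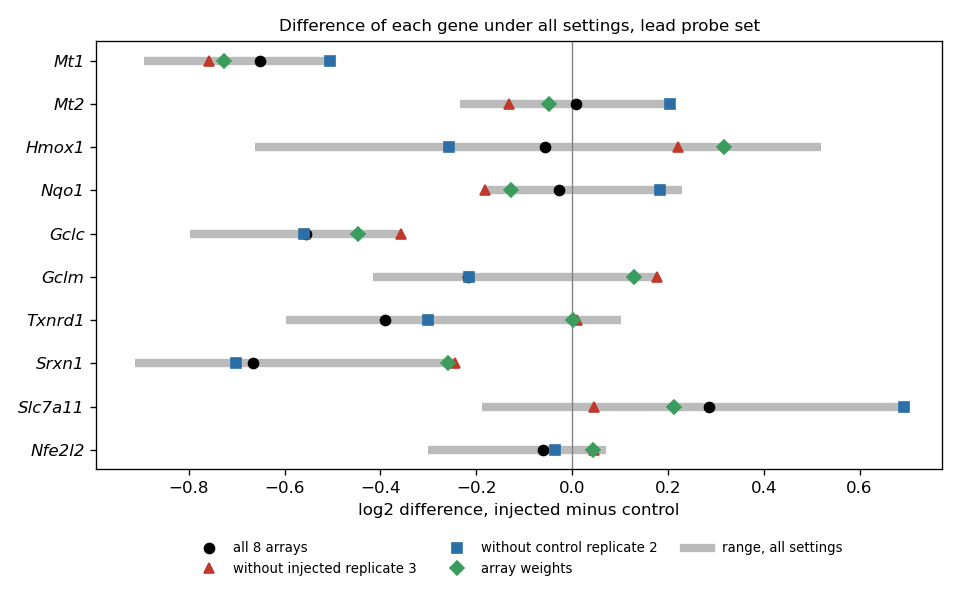
Log2 difference, injected minus control, of each gene at its strongest probe set with all 8 arrays, without injected replicate 3, without control replicate 2 and with array weights, over a grey bar for the range of all settings. Mt1, Gclc and Srxn1 stay below 0 throughout, while Txnrd1 goes to 0.01 and Gclm to 0.18 without injected replicate 3.

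Injected replicate 3 was low for many of the genes. It was the lowest of the 8 arrays at 5 of the 8 tested strongest probe sets (Gclc, Gclm, Txnrd1, Srxn1 and Nfe2l2), and at 29.5% of all tested probe sets. Its median deviation from the control mean over the 8 genes was -0.76, against -0.09, 0.0016 and -0.16 for injected replicates 1, 2 and 4. The SD was larger in injected than in control retina at 9 of 11 tested probe sets, with medians of 0.58 in injected and 0.20 in control retina. Over all tested probe sets it was larger in injected retina at 72.5%, with medians of 0.42 in injected and 0.26 in control retina. For Mt1, Mt2 and Nqo1, by contrast, injected replicate 3 was the highest of the injected arrays.

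Other enzymes of the NRF2 response gave no call either. Of 18 listed, 15 were tested and 0 passed, with a median of -0.12 and 1 higher at an unadjusted p under 0.05. The median was -0.034 without injected replicate 3 and -0.19 without injected replicate 4. The higher gene was Akr1b8, an aldo-keto reductase, at 0.64 ± 0.21 (SE; limma adjusted p = 0.635). It read 10.38, 9.88, 10.45 and 10.49 in injected replicates 1 to 4, against 9.57, 9.91, 9.74 and 9.42 in control replicates 1 to 4, so 3 of the injected arrays were above all controls. Nqo2, a relative of Nqo1, was at -0.73 ± 0.62 and at -0.02 without injected replicate 3. Tkt, a transketolase of the pentose phosphate pathway, was at -0.28 ± 0.26, at -0.055 without injected replicate 2 and at -0.47 without injected replicate 4. Probe sets ran from -0.95 to -0.20 for Nqo2 and from -0.54 to 0.034 for Tkt.

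Slc7a11 also belongs to the ATF4 response to amino acid shortage and endoplasmic reticulum stress, and Mt1 and Mt2 also respond to glucocorticoids. All 12 ATF4 response genes were tested, 0 passed and 1 was higher at an unadjusted p under 0.05, with a median of 0.09 that turned to -0.0081 without injected replicate 3. The higher gene was Chac1, which degrades glutathione, at 0.82 ± 0.27 (SE; limma adjusted p = 0.638). It read 10.90, 11.54, 11.84 and 10.74 in injected replicates 1 to 4, against 10.21, 10.30, 10.58 and 10.63 in control replicates 1 to 4, with all injected values above all controls, against the same 5.50% of genes. Cth, which makes cysteine, was at -0.45 ± 0.21, and the pseudokinase Trib3 was at 0.24 ± 0.23. Without injected replicate 3 Cth was at -0.30 and Trib3 at 0.089, and without injected replicate 4 Trib3 was at 0.37.

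Of 10 glucocorticoid response genes 8 were tested, 0 passed, and 1 was higher and 1 lower at an unadjusted p under 0.05, with a median of -0.09 that lay between -0.17 and -0.037 with 1 array left out. The clock gene Per1 was at -1.11 ± 0.31 (SE) and the receptor co-chaperone Fkbp5 at 0.41 ± 0.16, although a dim Fkbp5 probe set was at -1.14. The kinase Sgk1 was at -0.66 ± 0.31, and at -0.32 without injected replicate 3. The groups did not overlap at these 3 of the 8 tested genes, or 37.5%, against 5.50% of all genes tested. These 3 were named for having the smallest p in the list. The genes at an unadjusted p under 0.05 thus went in opposite directions within this list.

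**Figure D4:**
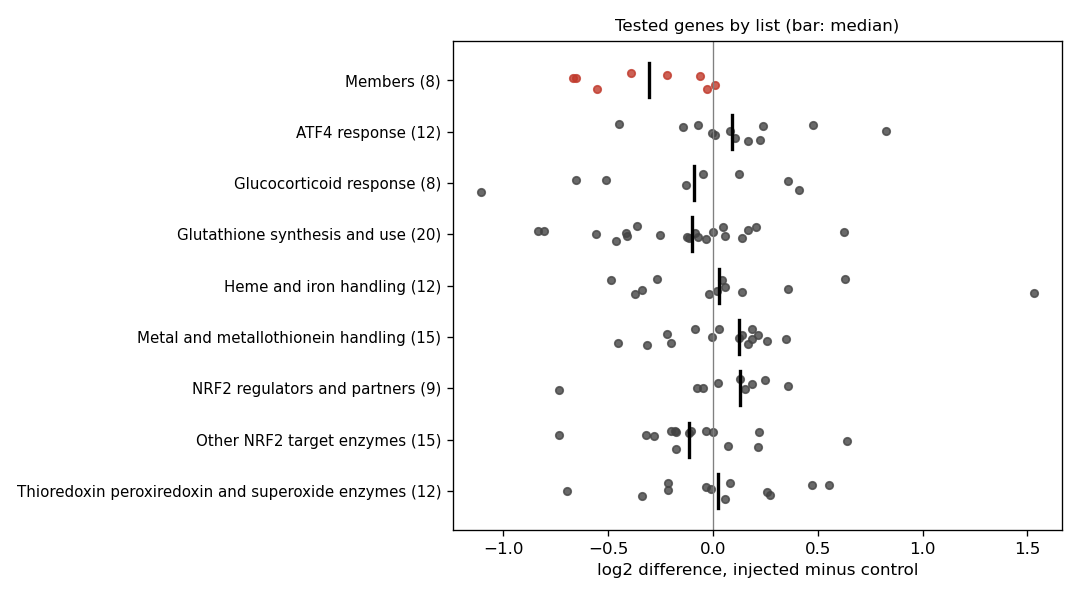
Log2 difference, injected minus control, of each tested gene at its strongest probe set, for the 8 tested genes at the top and for 8 related lists below, with the median of each list as a bar. The 8 genes have a median of -0.30, the list medians run from -0.12 to 0.13, and Lcn2 (1.53) is the point farthest to the right. Without injected replicate 3, which is not drawn, the differences were -0.76 for Mt1, -0.13 for Mt2, -0.18 for Nqo1 and -0.36 for Gclc. They were 0.18 for Gclm, 0.01 for Txnrd1, -0.24 for Srxn1 and 0.046 for Nfe2l2.

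Across the 8 lists, 103 of 121 genes were tested and 0 passed by limma. At an unadjusted p under 0.05 there were 9 of the 103, or 8.74%, with 6 higher and 3 lower, against 6.68% of the 12886 genes.

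The genes whose signal was most like that of Mt1 over the 8 arrays, out of 12885 searched, were Prcd (Pearson r = 0.960), Rgs13 (0.953) and Mrps16 (0.940). For Mt2 they were Chchd5 (0.974), Gas6 (0.971) and Echdc3 (0.964). None of these was also named for Mt1, but lists this short cannot show how alike the 2 neighbouring metallothionein genes are. For Nfe2l2 they were Sema3e (0.990), Zkscan4 (0.989) and Tomm70a (0.980). For Hmox1, whose signal was below the floor, they were Nde1 (0.972), Nhlrc3 (0.957) and Ddx58 (0.957). These are descriptions over 8 arrays that share their normalisation and the differences in array quality given above.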

How the data were processed

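The values are 1 intensity per probe set and array, deposited by the authors for 45101 probe sets. They are linear and scaled per array, since the 2% trimmed mean was 2500 on every array; the software is not given in the sources used here. Leaving out 64 array controls, the intensities deposited by the authors were quantile-normalised in limma 3.58.1 (R 4.3.3), because array medians differed by up to 1.55 times, and transformed as log2(intensity + 16), which understates changes of dim genes. Probe sets with a mean at or above the 40th percentile (8.50, about 345 intensity units) were tested with lmFit and eBayes, with Benjamini-Hochberg adjustment over all 27022. Probe sets below the floor were read from a fit of all 45037 and have no adjusted p here. The 10 symbols matched a current RefSeq table by Entrez identifier. The probe set with the highest mean stood for a gene. Its other probe sets are given beside it for the 10 genes, but only for some genes of the related lists.

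The members, the lists, the settings and the alternatives were chosen with earlier results of these data known. Named genes were all members at every probe set, the 3 genes with the smallest p in every list, and the 3 genes most correlated with Mt1, Mt2, Hmox1 and Nfe2l2; Mt3, Mtf1, Keap1 and Hmox2 were added for their role after their values were seen. Exact permutation used all 70 assignments of the arrays. The fit was tested on simulated data. Figures used matplotlib 3.10.9 in Python 3.11.15. The number of arrays limits the precision.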

Additional observations from a re-analysis of the deposited data

Results flagged for a closer look

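Hmox1 in control replicate 3 read 8.45, far above the other 3 control arrays, which ran from 6.12 to 6.18. The gap was 0.975 of the range of the group, above Dixon's critical value for 4 values. It was the 1 group flagged among 56 groups of 4 examined. Chance alone gives a gap above the critical value in about 1 of 20 groups. That rate is for passing the critical value, and the rate for a gap as large as 0.975 was not worked out. Without that array the Hmox1 difference was 0.52. Lens markers were also highest among the controls on that array, at 1.19 above the control mean of the list, with a summed intensity of 15900 there and from 1412 to 3639 on the other 3 controls, and their part in the Hmox1 value was not tested.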

How the results depend on the processing

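Under 19 alternatives, 0 member probe sets and 0 genes of the related lists passed the adjusted threshold in limma or the unmoderated test, and the smallest adjusted p of a member at its strongest probe set was 0.393, for Mt1 with array weights. Of 188 member differences under alternatives, 161 kept the sign of the reported value and 27 did not; Mt1, Gclc and Srxn1 kept theirs throughout. With array weights the difference was 0.13 for Gclm, 0.32 for Hmox1, -0.049 for Mt2, 0.044 for Nfe2l2 and 0.0027 for Txnrd1, and 8 probe sets of the whole array passed. With the deposited scaling it was 0.16 for Hmox1, -0.045 for Mt2 and 0.12 for Nqo1. Centring on array medians gave -0.23 for Mt2, and moved the median of all tested probe sets to -0.15, from which such differences should be read. Without control replicate 2 and injected replicate 3 together it was 0.18 for Gclm, 0.018 for Hmox1, 0.071 for Nfe2l2, 0.032 for Nqo1 and 0.10 for Txnrd1. Leaving out 1 array at a time gave ranges of -0.42 to 0.18 for Gclm, -0.66 to 0.52 for Hmox1, -0.23 to 0.20 for Mt2, -0.14 to 0.046 for Nfe2l2, -0.18 to 0.23 for Nqo1, -0.19 to 0.69 for Slc7a11 and -0.60 to 0.011 for Txnrd1. It gave 0 to 38 called probe sets on the whole array, the 38 without injected replicate 4. The cause was not tested. A replicate block, since the labels number both groups alike, gave 0 calls and left Mt1 at -0.65 (adjusted p = 0.737). Arrays of the same number correlated at -0.03 to 0.08 in their deviations from the group means, and 1 of 4 injected arrays was closest to its own number, so the numbers were not taken as pairs. Signal over background limits Hmox1 and Slc7a11.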
